A study of Homo sapiens with 6 samples.

Results

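The proteasome genes are the subunits, activators, inhibitor and assembly factors of the protease that degrades ubiquitin-tagged proteins. They were taken by symbol, as the rows of the deposited expression table whose Ensembl identifier belongs in GENCODE release 29 to a protein-coding gene named PSMA to PSMG with a number. This gave 48 genes of 32364 in the table. GENCODE release 29 lists 49 such genes, and the remaining one, PSMA8, was not analysed here. PSMC3IP meets the rule by name only, because it encodes a recombination cofactor and no part of the proteasome.

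The study used Kasumi-1, an acute myeloid leukemia line of the M2 subtype with a t(8;21) translocation. Cells were incubated for 48 h with 0.5 µM I13, an inhibitor of histone deacetylases that contains indole-3-butyric acid, or, as control, with the solvent DMSO at the concentration of the I13 solution. There were 3 control and 3 I13 libraries of mRNA, all from 1 cell line at 1 dose and 1 time. The paper describes its experiments in general, and the sequencing figure, as independent repeats, while the labels only number the replicates and do not give the culture of each library. The p-values below measure the spread between these libraries, which may be in part technical.

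The 20S core of the proteasome is a barrel of outer alpha rings and inner beta rings, and the protease sites lie in PSMB5, PSMB6 and PSMB7. A 19S cap of ATPases and other subunits binds the ubiquitin chain, unfolds the protein and opens the gate of the alpha ring. Interferon-stimulated and many blood cells replace the catalytic subunits by PSMB8, PSMB9 and PSMB10, and this immunoproteasome changes the peptides that are offered on MHC class I molecules. The comparison therefore asks whether the transcripts of the core, the cap, the activators, the assembly factors or the immunoproteasome differed between I13 and control cells.

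The depth recovered from the values was between 15281052 and 17221345 fragments per library. Myeloid transcripts were high in all libraries, as with MPO, a granule peroxidase, at 11942.7 ± 439.1 FPKM in control (SD, n = 3) and 11026.6 ± 771.2 in I13. Apart from the epithelial marker EPCAM, markers of other cell types were low but not all absent. The 4 T cell markers summed to between 1.66 and 2.03 FPKM in control and between 1.38 and 2.12 in I13, with CD3G at 0 in every library and CD8A at 1.39 ± 0.192 FPKM in control and 1.67 ± 0.416 in I13. The 3 B cell markers measured summed to between 1.83 and 2.27 FPKM in control and between 2.07 and 2.93 in I13, mostly from CD79A at 1.39 ± 0.194 and 1.93 ± 0.589 FPKM. The 3 red cell markers measured summed to at most 0.145 FPKM, and the collagens COL1A1 and COL1A2 were at 0 in every library. EPCAM was at 23.8 ± 2.86 FPKM in control and 23.9 ± 2.04 in I13, while KRT8, another epithelial marker, had 2 fragments in I13 replicate 3 and 0 in the other libraries. Control replicate 3 and I13 replicate 2 stood apart from the other 4 libraries on the first principal component, which held 43.3% of the variance of 4133 genes. The groups separated on the second component, with 20.5%. Values without these 2 libraries are given where a result rests on them. In bulk libraries, fewer cells of a type and less RNA per cell cannot be told apart.

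The immunoproteasome genes are the interferon-responsive part of the core, and their start-site sequences are shown with that of a constitutive partner for that reason. PSMB8 (chr6:32840717-32844703, minus strand) and PSMB9 (chr6:32844136-32859585, plus strand) lie next to each other in the MHC region, with annotated ends that overlap, and PSMB10 (chr16:67934502-67937087, minus strand) lies apart. Of the 48 genes, 42 had 1 or more windows of 300 bases around a RefSeq start site (GRCh38.p14), 52 windows in all. The stretches below run from 100 bases before the start site through the first 20 bases from it. For PSMB8 and PSMB5, which have another window each, the window with a match is shown. Capitals mark the letters GAAANNGAA, most of the repeat in the interferon response element, and TTCNNNGAA, the core of the gamma-interferon activation site, on either strand. In these stretches the matches did not overlap.
PSMB8, chr6:32844028-32844147, minus strand: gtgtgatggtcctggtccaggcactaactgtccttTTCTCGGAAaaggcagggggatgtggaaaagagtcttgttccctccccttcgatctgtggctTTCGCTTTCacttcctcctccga
PSMB10, chr16:67936831-67936950, minus strand: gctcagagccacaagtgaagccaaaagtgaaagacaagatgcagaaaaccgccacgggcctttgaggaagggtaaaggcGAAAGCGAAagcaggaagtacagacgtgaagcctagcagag
PSMB9, chr6:32854092-32854211, plus strand: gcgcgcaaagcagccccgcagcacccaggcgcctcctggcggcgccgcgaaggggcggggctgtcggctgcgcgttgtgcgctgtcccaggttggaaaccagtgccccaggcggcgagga
PSMB5, chr14:23034881-23035000, minus strand: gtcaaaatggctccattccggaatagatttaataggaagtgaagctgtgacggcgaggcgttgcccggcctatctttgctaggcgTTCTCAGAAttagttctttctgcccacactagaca

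The PSMB8 stretch held both cores, with the interferon core on the opposite strand across the start site. The PSMB10 stretch held the interferon core 21 bases before the start site. The PSMB9 stretch held neither set of letters, and the PSMB5 stretch held the activation-site core alone. Over the 52 windows, GAAANNGAA was found in 8 (15.4%), against 8.11% of the 35116 windows of all genes. The 8 windows belonged to PSMB8, PSMB10, the activator genes PSME1 and PSME2, the core genes PSMA4 and PSMB4, the cap gene PSMC2 and the assembly gene PSMG4. TTCNNNGAA was found in 13.5% of the 52 windows and in 7.66% of all windows. TGACNNNGC, the antioxidant response core that NFE2L1 and NFE2L2 bind, was found in 15 of the 52 windows (28.8%) and in 13.3% of all windows. CCGGAAG, an ETS core, was found in 30.8% against 10.3%, CCAAT in 42.3% against 34.6%, and TATAAA in 7.69% against 11.5%. All were searched on both strands, and a match is a description of letters, not of a bound site.

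The proteasome was transcribed at a high level in these cells. The 48 genes together held between 0.464% and 0.497% of the summed FPKM of a library. FPKM is the unit of the deposited table. It is the number of fragments on a gene set relative to the length of its exons and to the depth of the library. Levels of different genes in FPKM therefore depend on the exon length used. PSMG4 lay at 2.40 FPKM with all its annotated exons and at 39.7 with the length of its longest-coding transcript. Of the 48 genes, 34 had a mean of at least 10 FPKM, 9 lay from 1 to 10 and 5 lay under 1. Those 5 were PSMA2, PSMA6, PSMB9, PSMB11 and PSMD9. PSMB11, the catalytic subunit of the thymus, had 1 fragment in control replicate 1 and 0 in the other libraries, and it is the only one of the 48 that fell under the minimum for the tests. In the plot of FPKM by gene, the 6 libraries of most genes lie on top of each other, and the immunoproteasome genes, PSMA1, PSMA2, PSMA6, PSMD9 and PSMB11 stand low.

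**Figure D1:**
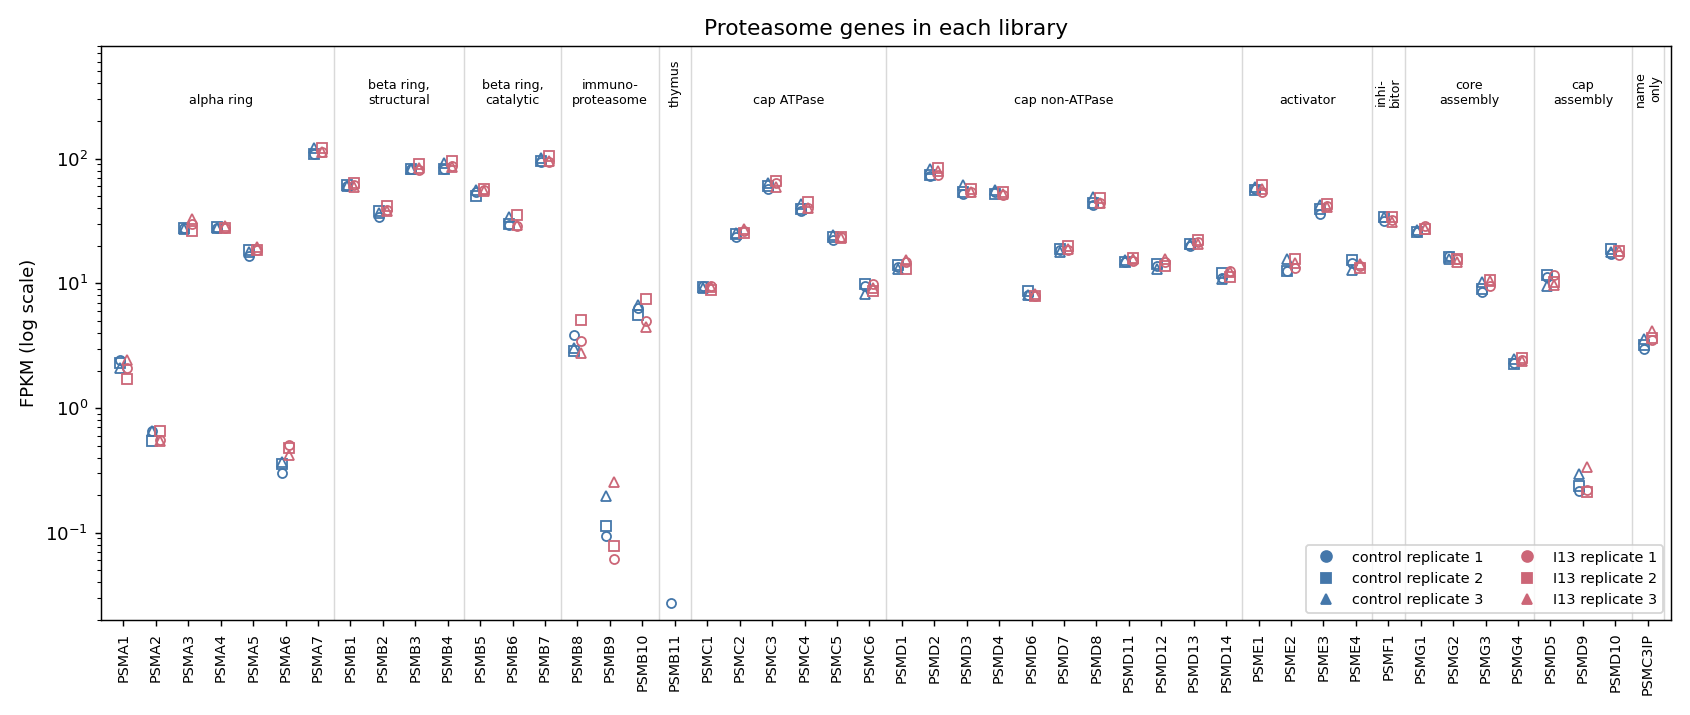
FPKM (log axis) of each proteasome gene in each of 6 libraries, ordered by role, with blue symbols for control, red for I13 and a symbol shape for each replicate number. Libraries at 0 are not drawn (PSMB11 in 5 libraries). PSMA7 is the highest gene at a mean of 114.7 FPKM, and PSMB8, PSMB9 and PSMB10 lie below PSMB5, PSMB6 and PSMB7 in every library.

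No proteasome gene passed the test between I13 and control. Across all 18726 genes tested with limma, 0 passed an adjusted p of 0.05 (0.0%), and 963 (5.14%) had an unadjusted p under 0.05. Of the 47 proteasome genes tested, 0 had an adjusted p under 0.05 and 0 had an unadjusted p under 0.05 in the same fit. With the study's fold threshold of 0.58 on the log2 scale added to the unadjusted p the count was also 0 of 47, against 2.38% of all genes. The smallest adjusted p by limma was 0.954 and the smallest unadjusted p was 0.0787, for PSMB2. With limma's voom on fragments recovered from the FPKM values, 16 of 13849 genes (0.116%) passed the adjusted p and 5.69% the unadjusted p, and 0 of 46 proteasome genes passed either.

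The log2 fold change of I13 over control, on the scale of log2(FPKM + 0.1), was above 0 for 33 proteasome genes (70.2%) and below 0 for 14. Over all genes tested the share above 0 was 51.8%. The median over the proteasome genes was 0.043, beside 0.0058 over all genes, and 37 of the 47 lay within 0.1 of 0. The lowest value was -0.16 for PSMB10 and the highest was 0.35 for PSMA6. Without control replicate 3 and I13 replicate 2, 28 of the 47 were above 0 with a median of 0.04, and between those 2 libraries alone 31 were above 0 with a median of 0.03. The sign was the same in both comparisons for 24 genes. With a term for these 2 libraries in limma, PSMD12 and PSMG3 had an unadjusted p under 0.05, 2 genes against 7.62% of all genes tested. In the other 4 libraries alone, a fit added after seeing the data, PSMA3, PSMC2 and PSMD1 did, 3 genes against 8.58% of all genes tested.

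These intervals were narrow. The median standard error of a proteasome gene was 0.0679 on the log2 scale, beside 0.154 over all genes tested, those of low level included. The 95% interval lay inside ±0.58, the same threshold, for 42 of the 47 proteasome genes (89.4%). The share was 54.1% of all genes tested and 85.7% of those whose mean reached 1 FPKM. The last share is of an unlike set, because the 47 include PSMA2, PSMA6, PSMB9 and PSMD9, with means under 1 FPKM. The 5 genes whose intervals reached past ±0.58 were PSMA6, PSMB8, PSMB9, PSMB10 and PSMD9, and for these the data leave room for a difference of that size. For the other 42 the intervals cover only the spread between these libraries, which may be in part technical. The added 0.1 FPKM also shrinks changes of low genes such as PSMA2, at 0.6 FPKM with an interval from -0.55 to 0.39.

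**Figure D2:**
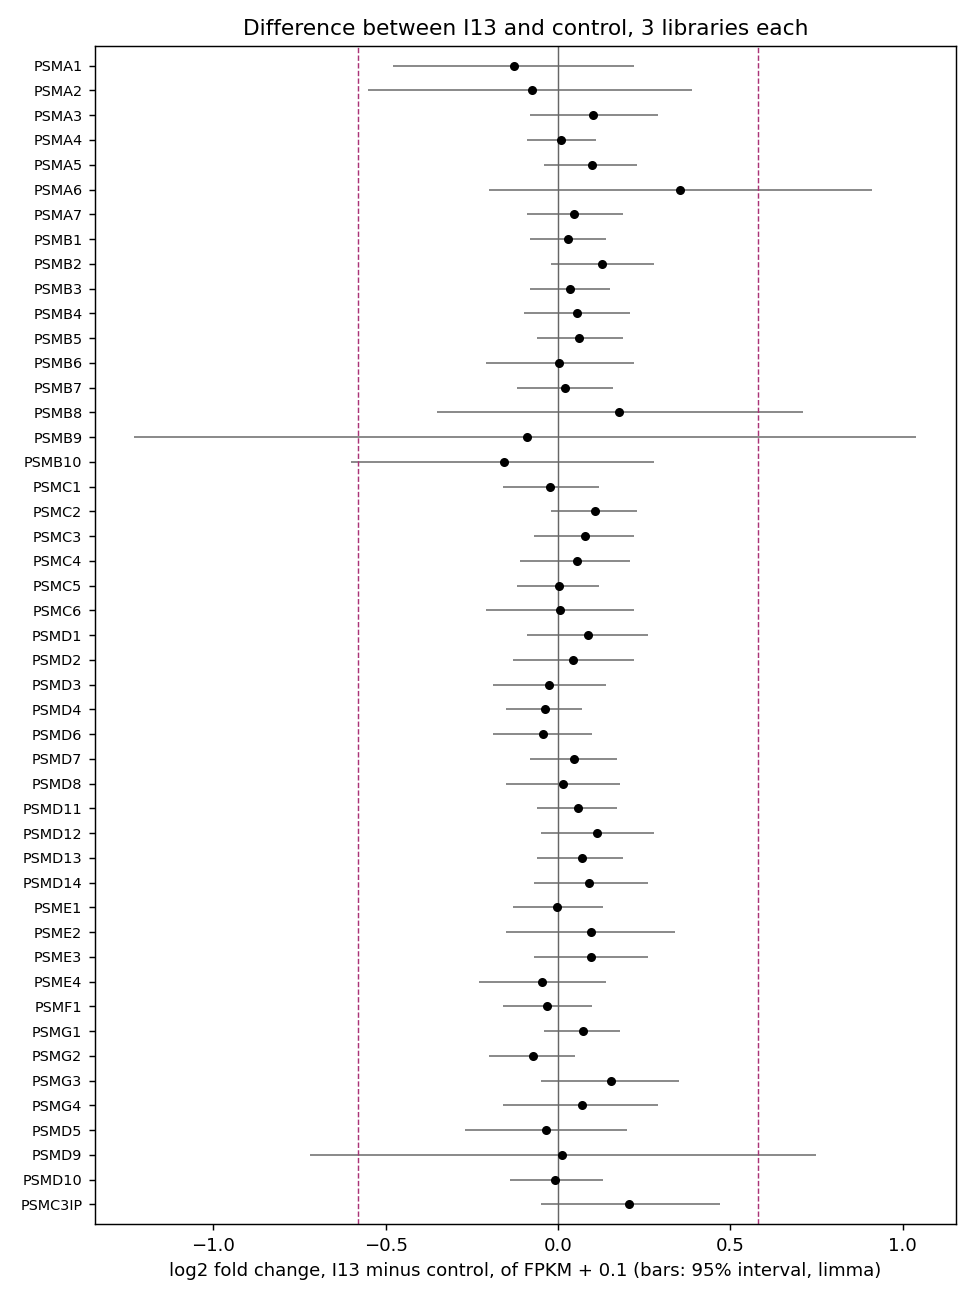
Log2 fold change of I13 over control (points) with the 95% interval from limma (bars) for the 47 proteasome genes tested, with dashed lines at -0.58 and 0.58. All intervals include 0, and those of PSMA6, PSMB8, PSMB9, PSMB10 and PSMD9 cross a dashed line.

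The I13 values of 4 proteasome genes all lay above the control values, PSMA5, PSMA6, PSMC2 and PSMG1, and 0 genes showed the reverse. This is 8.51% of the 47, against 9.52% of all genes tested without overlap between the groups in either direction (4.88% with I13 higher and 4.64% with I13 lower). PSMA5, an alpha ring subunit, was at 16.7, 18.5 and 17.7 FPKM in control replicates 1 to 3 and at 18.5, 18.6 and 19.4 in I13 replicates 1 to 3. PSMC2, a cap ATPase, was at 23.6, 24.7 and 25.3 FPKM in control and at 26.5, 25.4 and 27.5 in I13. The gaps between the groups were small beside the spread within them. By limma the log2 fold change was 0.10 for PSMA5 (standard error 0.0571, unadjusted p = 0.127) and 0.11 for PSMC2 (standard error 0.053, unadjusted p = 0.0802). PSMG1, which pairs with PSMG2 to guide assembly of the alpha ring, was at 26.0, 26.0 and 27.0 FPKM in control and at 28.7, 27.4 and 27.1 in I13, and its limma log2 fold change was 0.07.

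Among the alpha ring genes, which form the gate of the core, PSMA7 was the most abundant with 112.9 ± 7.01 FPKM in control and 116.5 ± 5.09 in I13 (SD, n = 3). PSMA3, PSMA4 and PSMA5 lay at 28.6, 28.0 and 18.2 FPKM as means over the 6 libraries. PSMA3 was at 27.7, 27.8 and 27.3 FPKM in control and at 30.0, 26.4 and 32.7 in I13, so that the I13 libraries lay on both sides of the controls. PSMA1, PSMA2 and PSMA6 were far lower, at 2.17, 0.60 and 0.406 FPKM. As subunits of one ring, the 7 proteins are present in equal number in each proteasome, while the listed transcript levels ran from 0.406 to 114.7 FPKM. At the low end, another locus covers the coding transcripts of PSMA1, PSMA2 and PSMA6 on the same strand by 59.5%, 52.5% and 80.3%. Whether this lowered their levels was not tested.

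PSMA6 had the highest log2 fold change of the proteasome genes. It was at 0.303, 0.358 and 0.371 FPKM in control and at 0.502, 0.479 and 0.422 in I13. All I13 libraries were above all control libraries. The limma log2 fold change was 0.35, with a 95% interval from -0.20 to 0.91 and an unadjusted p of 0.174. Of the alternatives tried, PSMA6 passed the unadjusted p only in limma without a variance trend. Its level was among the lowest of the proteasome genes, and much of its coding transcript overlaps another locus.

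The structural beta ring genes PSMB1, PSMB2, PSMB3 and PSMB4 lay between 37.9 and 87.5 FPKM, and all 4 fold changes were above 0, from 0.03 to 0.13 on the log2 scale. PSMB2 was at 34.0, 38.2 and 36.4 FPKM in control and at 38.7, 42.0 and 38.1 in I13, so the lowest I13 library lay just under the highest control library. For PSMB2 the limma log2 fold change was 0.13, with a standard error of 0.0624. The constitutive catalytic genes PSMB5, PSMB6 and PSMB7, which carry the chymotrypsin-like, caspase-like and trypsin-like activities, were at 54.7, 31.0 and 97.3 FPKM over the 6 libraries. Their summed level was 181.2 ± 8.66 FPKM in control and 185.0 ± 10.9 in I13.

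The immunoproteasome genes were low in FPKM in both groups. Their summed level was 9.55 ± 0.934 FPKM in control and 9.54 ± 2.72 in I13. PSMB8 was at 3.88, 2.85 and 3.01 FPKM in control and at 3.44, 5.08 and 2.77 in I13, from 332 fragments in the control and 365 in the I13 libraries. I13 replicate 2 was the highest and I13 replicate 3 the lowest of the 6, so the groups overlapped over their whole range. The limma log2 fold change was 0.18, with a 95% interval from -0.35 to 0.71. It was -0.10 without control replicate 3 and I13 replicate 2, and 0.74 between those 2 libraries.

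PSMB10 was at 6.30, 5.54 and 6.68 FPKM in control and at 5.02, 7.47 and 4.45 in I13. I13 replicate 2 was again the highest library, and I13 replicates 1 and 3 lay below every control. The limma log2 fold change was -0.16, with a 95% interval from -0.60 to 0.28 and an unadjusted p of 0.429. Without I13 replicate 2 the log2 fold change of PSMB10 was -0.37, with an unadjusted limma p of 0.0176, whereas it was -0.01 without I13 replicate 3, -0.09 without I13 replicate 1 and -0.10 without control replicate 3. Its size therefore rested on single libraries in both directions. With both control replicate 3 and I13 replicate 2 left out the log2 fold change of PSMB10 was -0.32, and between those 2 libraries it was 0.16. PSMB10 has the highest GC content among the genes that were higher in control replicate 3 and I13 replicate 2, at 60.1% of its coding transcript.

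PSMB9 was hardly detected. It had 5, 6 and 10 fragments in the control libraries and 3, 4 and 12 in the I13 libraries, 21 and 19 fragments in all. Replicate 3 of each group was the highest. On the scale of log2(FPKM + 0.1) the limma log2 fold change was -0.09, with a 95% interval from -1.23 to 1.04. The mean of PSMB9, 0.133 FPKM, lies near the added 0.1, so this interval understates the range of fold changes in FPKM. The log2 fold change was 0.23 without control replicate 3 and I13 replicate 2, and -0.74 between those 2 libraries.

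The ratio of each immunoproteasome gene to the constitutive gene it replaces was computed within each library, which takes out differences in scaling between libraries. PSMB8 stood at 7.21%, 5.63% and 5.34% of PSMB5 in control and at 6.20%, 8.89% and 5.05% in I13. PSMB9 stood at 0.324%, 0.382% and 0.581% of PSMB6 in control and at 0.212%, 0.222% and 0.876% in I13. PSMB10 stood at 6.73%, 5.80% and 6.61% of PSMB7 in control and at 5.38%, 7.10% and 4.66% in I13. The groups overlapped in all 3 ratios, and each immunoproteasome gene was under 10% of its partner in FPKM in every library. Another locus covers 45.3% of the coding transcript of PSMB10 on the same strand, against 0% for PSMB7. Whether this lowered the PSMB10 ratio was not tested.

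The mean log2 ratio differed between I13 and control by 0.12 for PSMB8 to PSMB5, by -0.27 for PSMB9 to PSMB6 and by -0.18 for PSMB10 to PSMB7. The exact two-sided permutation p was 0.7, 0.7 and 0.4, and 0.7 for each after adjustment over the 3 ratios. With 3 against 3 libraries the smallest p this test can give is 0.1. The direction of PSMB8 and of PSMB9 rested on single libraries. Without I13 replicate 2 the difference was -0.10 for PSMB8, and without I13 replicate 1 it was 0.09 for PSMB9. For PSMB10 the direction held with each library left out, but the difference was -0.35 without I13 replicate 2 and -0.04 without I13 replicate 3.

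**Figure D3:**
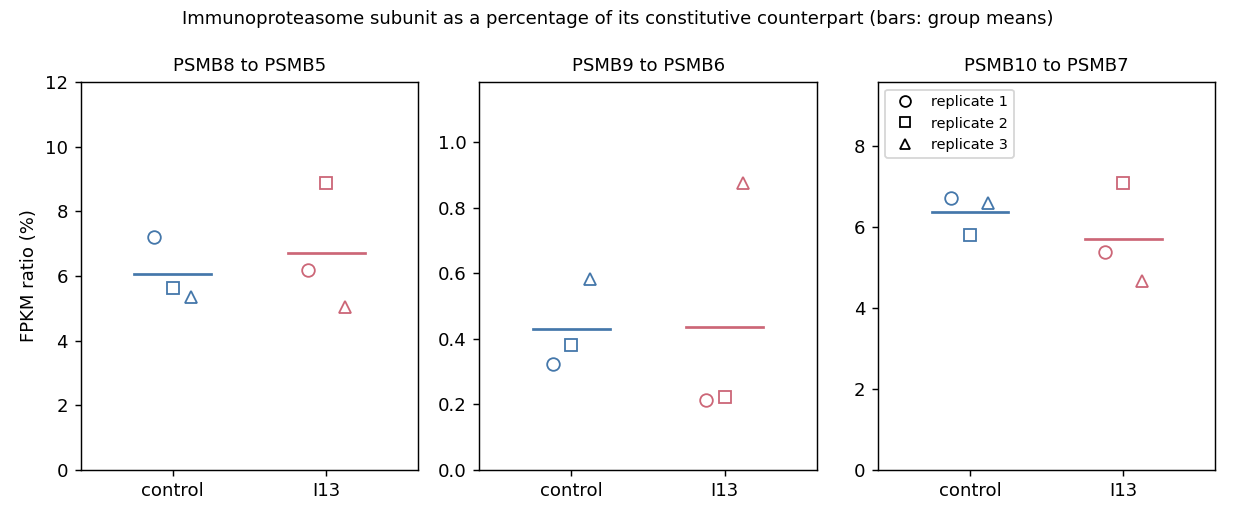
FPKM of PSMB8, PSMB9 and PSMB10 as a percentage of PSMB5, PSMB6 and PSMB7 in each library, with control in blue, I13 in red and horizontal bars at the group means. Each panel has its own axis from 0, and the groups overlap in every panel. For PSMB9 the mean percentage was slightly higher in I13, while the mean log2 ratio was lower.

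The regulators of the immunoproteasome were measured beside it. IRF1, an interferon-induced activator of its genes, was at 1.90 ± 0.157 FPKM in control and 1.85 ± 0.27 in I13 (SD, n = 3). NLRC5, a transactivator of MHC class I genes, was at 0.791 ± 0.104 and 0.801 ± 0.0859 FPKM. The peptide transporter genes TAP1 and TAP2 had a limma log2 fold change of 0.21 each, with unadjusted p-values of 0.331 and 0.229. None of these 4 passed the test.

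The cap ATPase genes PSMC1 to PSMC6 form the ring that unfolds the substrate and lay between 9.23 and 61.7 FPKM, with PSMC3 the highest. Of the 6 fold changes, 5 were above 0, from -0.02 for PSMC1 to 0.11 for PSMC2 on the log2 scale. Their summed level was 166.6 ± 7.02 FPKM in control and 173.3 ± 4.3 in I13. PSMC1 shares 75.8% of its exon bases with NRDE2 on the opposite strand. Since no source used here states the strand setting of the counting, reads of these 2 genes may not have been told apart.

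The 11 non-ATPase cap genes lay between 8.13 FPKM for PSMD6 and 77.4 FPKM for PSMD2, a scaffold subunit. Fold changes were above 0 for 8 of them and ranged from -0.04 to 0.11. PSMD4, a ubiquitin receptor, was at 53.8 ± 1.62 FPKM in control and 52.4 ± 1.44 in I13. PSMD14, the deubiquitinase of the cap, was at 11.1, 12.1 and 10.8 FPKM in control and at 12.5, 11.3 and 12.4 in I13. PSMD12, a lid subunit, was at 13.8, 14.3 and 13.1 FPKM in control and at 14.9, 13.8 and 15.8 in I13, and for both genes only I13 replicate 2 lay within the control range. By limma the log2 fold change was 0.09 for PSMD14 and 0.11 for PSMD12, with unadjusted p-values of 0.233 and 0.143. PSMD1, PSMD3, PSMD7, PSMD8, PSMD11 and PSMD13 had values from -0.03 for PSMD3 to 0.09 for PSMD1.

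The activators differed little. PSME1 and PSME2, the subunits of the interferon-inducible PA28 ring, were at 57.6 ± 1.74 and 13.6 ± 1.74 FPKM in control and at 57.5 ± 3.28 and 14.5 ± 1.17 in I13. PSME1 was thus among the abundant proteasome transcripts, while PSMB8, PSMB9 and PSMB10 were low in the same libraries. PSME3, which forms the nuclear activator ring, and PSME4, which encodes PA200, had log2 fold changes of 0.09 and -0.05. PSMF1, an inhibitor of the core, was at 33.1 ± 1.24 FPKM in control and 32.4 ± 1.62 in I13.

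Of the core assembly genes, PSMG2 was at 16.2 ± 0.565 FPKM in control and 15.4 ± 0.483 in I13, with a limma log2 fold change of -0.07, the reverse sign of its partner PSMG1. PSMG3 was at 8.50, 8.98 and 10.2 FPKM in control and at 9.58, 10.7 and 10.5 in I13, with a limma log2 fold change of 0.15 and an unadjusted p of 0.111. PSMG4, which pairs with PSMG3, was at 2.40 FPKM over the 6 libraries. Of the cap assembly genes, PSMD5 and PSMD10 were at 10.7 and 17.8 FPKM and PSMD9 at 0.254. PSMC3IP, which only shares the name, was at 3.25 ± 0.32 FPKM in control and 3.76 ± 0.344 in I13, with a limma log2 fold change of 0.21 and an unadjusted p of 0.105.

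The other genes of the pathway were taken from 5 lists of 34 genes in all. At the unadjusted p of limma 0 of the 34 passed, beside 5.14% of all genes tested, with 18 fold changes above 0, 16 below 0 and a median of 0.01. The smallest unadjusted p was 0.142. POMP, which drives maturation of the core, was at 27.8 ± 1.98 FPKM in control and 29.6 ± 3.02 in I13. NFE2L1, the transcription factor that raises proteasome subunit genes when degradation is blocked, was at 39.6 ± 1.91 and 39.9 ± 1.76 FPKM. The 10 proteasome-associated genes, the 4 of subunit transcription, the 9 shuttle and segregase genes, the 5 of ubiquitin and its activation and the 6 of immunoproteasome regulation had 6, 2, 3, 4 and 3 fold changes above 0.

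The low values of PSMA1, PSMA2, PSMA6, PSMB10 and PSMD9 went with the annotation. This was looked at after the values had been seen. In GENCODE release 29 another protein-coding locus covers 59.5% of the coding transcript of PSMA1 on the same strand, 52.5% of PSMA2, 80.3% of PSMA6, 45.3% of PSMB10 and 43.8% of PSMD9. The coding transcript is here the longest-coding one of each gene. Of the other 43 genes only PSME2 had any same-strand overlap of the coding transcript, at 0.114% and with the miRNA gene MIR7703. Counting programs such as HTSeq by default leave out fragments that lie on more than 1 gene, and no source used here states the authors' settings.

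The overlapping loci were themselves near 0. AC010132.3, which overlaps PSMA2, had 2 fragments in I13 replicate 2 and 0 in the other libraries. AL121594.1, which overlaps PSMA6, had between 0 and 3 fragments per library. AC040162.1, which overlaps PSMB10, lay between 0.0442 and 0.164 FPKM. Both AC069503.2 and WDR66 overlap PSMD9. AC069503.2 had 2 fragments in control replicate 2 and 0 in the other libraries. WDR66, which reaches only the end of PSMD9, lay between 0.0273 and 0.0632 FPKM. AC018523.2, which overlaps PSMA1, was not analysed here. Whether fragments were lost to the overlap was not tested, because the reads were not used here.

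Among the 31 subunits of the core and cap other than the immunoproteasome and PSMB11, the 3 with the overlap had means from 0.406 to 2.17 FPKM and the 28 without it from 8.13 to 114.7 FPKM, with a median of 29.8. The latter spanned 14.1-fold. Dividing the same fragments by the length of the coding transcript, in place of all annotated exons, gave from 2.15 to 5.66 for the 3 and from 12.8 for PSMC1 to 201.5 for PSMA7 for the 28, on the FPKM scale. The order of the 2 sets was thus the same with either length. In each of the 28, the highest of the 6 libraries was between 1.04 and 1.24 times the lowest, with between 646 and 7597 fragments per gene and library.

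**Figure D4:**
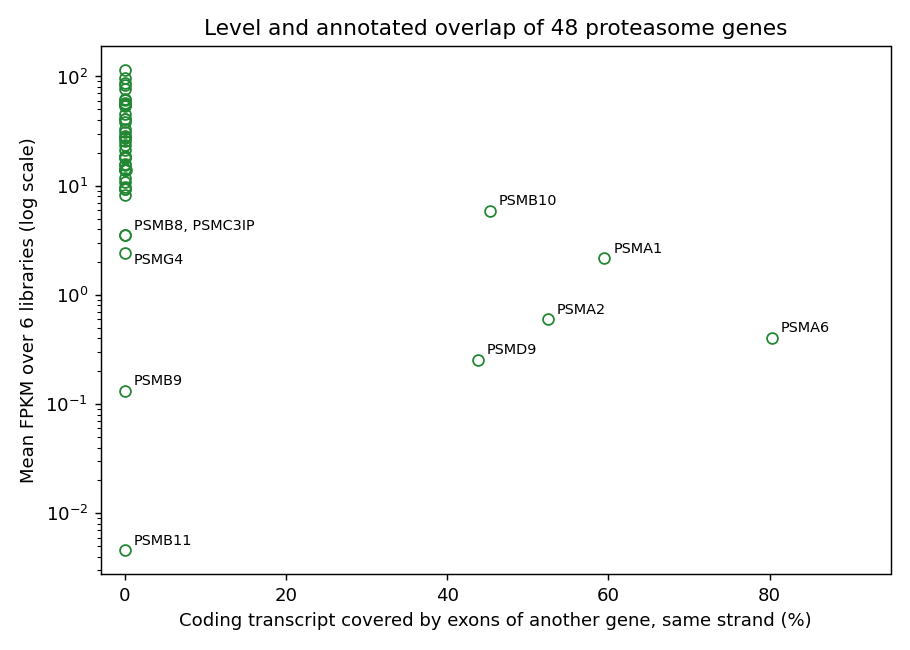
Mean FPKM over 6 libraries (log axis) of each of the 48 proteasome genes against the percentage of its coding transcript that exons of another gene cover on the same strand. The 5 genes at over 40% lie at 5.91 FPKM (PSMB10) or below. PSMB8, PSMB9, PSMB11, PSMC3IP and PSMG4 are as low in FPKM with none of that overlap. With the length of the coding transcript in place of all annotated exons, PSMG4 lies at 39.7 and PSMB10 at 8.99.

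More proteasome genes separated by a pair of libraries than by the groups. Control replicate 3 and I13 replicate 2 lay both above or both below the other 4 libraries for 22 of 47 proteasome genes (46.8%), against 27.3% of all genes tested. They were above for 16, where 10.3% of all genes were, and below for 6, where 17.0% were. The 16 were PSMA7, PSMB4, PSMB5, PSMB6, PSMB7, PSMB10, PSMC4, PSMD2, PSMD3, PSMD4, PSMD8, PSME1, PSME2, PSME3, PSMF1 and PSMG4. The 6 were PSMA1, PSMA3, PSMC1, PSMC6, PSMD1 and PSME4. The pair was found from these same libraries, so the counts describe them and test nothing.

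The direction moved with GC content, which was also looked at after the values had been seen. The coding transcripts of the 16 had a GC content from 47.3% to 60.1%, with a median of 53.4%, and those of the 6 from 38.1% to 48.7%, with a median of 42.1%. Across the 43 proteasome genes with a mean of at least 1 FPKM, Pearson's r of GC content and of the log2 difference between these 2 libraries and the rest was 0.76 and Spearman's rho was 0.81. Across 9677 protein-coding genes with a mean of at least 1 FPKM they were 0.69 and 0.73. These are correlations across genes of the same 6 libraries, and genes are not independent replicates. The part of GC content in the levels was not tested. The pair holds 1 library of each group. PSMB10 was higher in both than in the other 4 libraries, while PSMB8 was highest in I13 replicate 2 but not raised in control replicate 3.

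**Figure D5:**
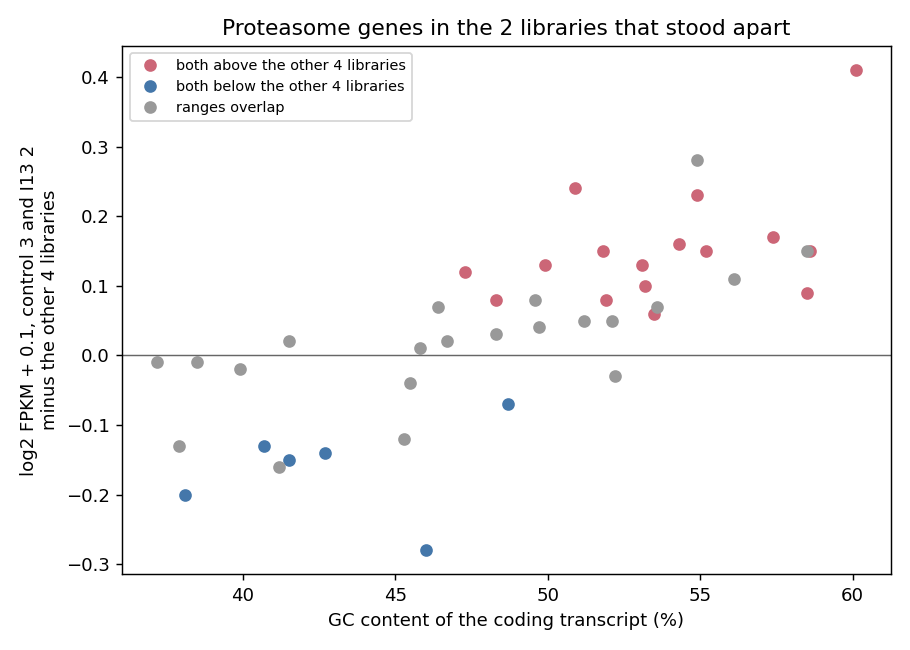
Log2 difference between the mean of control replicate 3 and I13 replicate 2 and the mean of the other 4 libraries, against the GC content of the coding transcript, for the 43 proteasome genes with a mean of at least 1 FPKM. Red points are genes for which both libraries lay above the other 4, blue points those for which both lay below, and gray points the rest, and the points rise from low to high GC content (r = 0.76).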

How the data were processed

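The authors deposited 1 table of FPKM per Ensembl gene for 6 mRNA libraries of Kasumi-1 cells (TruSeq stranded kit). Per the labels, Trimmomatic, HISAT2, Cufflinks and HTSeq were used with build hg38. No source used here states their versions, the annotation or the strand setting. The number of per-sample columns left unused was 0.

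Whole fragments were recovered with exon lengths of GENCODE release 29 and the depth, within a tolerance of 0.01, for 25770 of 27002 genes (95.4%) and 47 of 48 proteasome genes. For PSMB8 the length came from the common step of its values. Depth limits precision mainly for PSMB9, and counts of fragments cover counting error only.

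Differences were fitted with limma 3.58.1 (R 4.3.3), taking log2(FPKM + 0.1) over 18726 genes with a mean of at least 0.1 FPKM, with a variance trend, two-sided, and Benjamini-Hochberg adjustment. The pseudocount understates changes of low genes. Ratios were compared by exact permutation. The scripts were tested on simulated data. The proteasome genes, the gene lists and the tests were chosen with earlier results of these data known. Every proteasome gene is named, and of other pathway genes those with an unadjusted p under 0.05 and IRF1, NLRC5, TAP1, TAP2, POMP and NFE2L1. The rule also lists a regulator that is not reported here. The marker genes, overlapping loci, GC content and single genes outside this rule were chosen after values were seen. Marker lists were used to check the cell line. Of the 7 myeloblast genes 1 had an unadjusted p under 0.05 by limma (CD33, higher in I13), beside 5.14% of all genes tested. Of the 2 T cell genes tested 1 did (CD3D, 0.338 FPKM in control and 0.135 in I13). CD3D rested on 5, 6 and 5 fragments in the control libraries and on 2 in each I13 library. Of the 3 B cell genes and 1 epithelial gene 0 did, while 0 erythroid genes reached the minimum.

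Alternatives were pseudocounts of 1 and 0.01, no minimum or a minimum of 1 FPKM, quantile normalization or scaling to the median, leaving out each library, the replicate number as a block, no trend, robust variances, voom on genes averaging 10 or more fragments, and a term for the pair of libraries that stood apart. Added after seeing the data were limma on the other 4 libraries and voom with the replicate block or with the pair term. The replicate numbers were checked as pairs. The correlation of same-numbered deviations was 0.32, -0.379 and -0.297, so the numbers were not taken to pair the libraries.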

Additional observations from a re-analysis of the deposited data

How the results depend on the processing

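Across all genes, the number with an adjusted p under 0.05 was 0, and it was 9 without a variance trend and 16 with voom. In fits added after seeing the data it was 45 for voom with the replicate block and 91 for voom with a term for control replicate 3 and I13 replicate 2. The number with an unadjusted p under 0.05 was 963, and it was 582 at a minimum of 1 FPKM. It was 1607 in the other 4 libraries and 1449 for voom with the pair term, both fits added after seeing the data. With limma and the replicate number as a block it was 862, with 0 proteasome genes, and in limma the block changed no call of a proteasome gene.

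Proteasome genes with an unadjusted p under 0.05 numbered 0, and 0 in 13 of the 20 alternatives. The number was 1 without a variance trend (PSMA6; 4.77% of all genes tested), 2 with the pair term (PSMD12 and PSMG3; 7.62% of all genes), 3 in the other 4 libraries (PSMA3, PSMC2 and PSMD1; 8.58% of all genes) and 2 for voom with the pair term (PSMB2 and PSMD12; 10.5% of all genes). With each library left out in turn it ranged from 0 to 5, with 5 without I13 replicate 2 (PSMA3, PSMB10, PSMC2, PSMD1 and PSMD12, where 6.92% of all genes passed), 3 without control replicate 3 (PSMC3IP, PSME3 and PSMG3, 6.42%) and 1 without control replicate 2 (PSMB2, 4.20%). The smallest adjusted p of a proteasome gene under any alternative was 0.291. Between 28 and 35 proteasome genes were above 0. Of 933 values of single genes under the alternatives, 48 had the other sign, all without passing the unadjusted p, and 17 moved past it.

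The difference in the log2 ratio of PSMB8 to PSMB5 ranged from -0.10 to 0.31 with each library left out and was -0.10 without I13 replicate 2 and -0.19 in the other 4 libraries. That of PSMB9 to PSMB6 ranged from -0.94 (without I13 replicate 3) to 0.09 and was 0.09 without I13 replicate 1, 0.05 without I13 replicate 2 and 0.29 in the other 4 libraries. That of PSMB10 to PSMB7 ranged from -0.35 (without I13 replicate 2) to -0.04 (without I13 replicate 3) and was -0.32 in the other 4 libraries. The cause was not tested.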
